A study of Mus musculus with 23 samples.

Results

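The mRNAs of 5 RNA-decay factors were followed through mouse oocytes and early embryos: Tut4 and Tut7, Dis3l2, and Zfp36l1 and Zfp36l2. They were chosen by name as the terminal uridylation enzymes, the exonuclease that degrades uridylated RNA and a pair of AU-rich element binding proteins, and they are 5 of the 56196 genes counted. Levels were read in germinal vesicle (GV) oocytes, which have finished growth and are still in prophase of meiosis, and in embryos, each labelled wild-type (WT) or Eif4enif1+/- (het, heterozygous for Eif4enif1). Eif4enif1 encodes 4E-T, a partner of the cap-binding protein eIF4E in cytoplasmic mRNA granules. GV oocytes of both genotypes gave a transcriptome (total mRNA) and a translatome (mRNA captured on ribosomes), with 2 libraries per genotype and fraction. Embryos of both genotypes were taken at 1 cell without treatment and at 2 cells following 24 h in vitro, and one more group held het embryos labelled as arrested at 1 cell, also following 24 h in vitro. Each embryo group had 3 libraries. The labels give no strain, age or structure of the Eif4enif1 allele. They do not say whether an embryo's genotype is its own or its mother's, nor whether the libraries of a group derive from different females. P-values therefore reflect only the spread among these libraries, which may be technical.

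TUT4 and TUT7 are related terminal uridylyltransferases that add uridines to the 3′ ends of mRNAs with short poly(A) tails and, together with LIN28, of the let-7 precursor. DIS3L2 is a 3′-to-5′ exonuclease that prefers RNA with a uridine tail. ZFP36L1 and ZFP36L2 are zinc-finger proteins that bind UAUUUAU-type elements in 3′ untranslated regions (3′ UTRs) and recruit the CCR4-NOT deadenylase. Oocytes store maternal mRNA and clear it around fertilisation and cleavage, and uridylation by TUT4 and TUT7 and binding by ZFP36L2 are both known to act on the maternal mRNA pool of mouse oocytes.

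Because ZFP36 proteins are known to bind UAUUUAU elements, the 3′ UTRs of the 5 mRNAs themselves were searched for this element (TATTTAT in DNA letters, sense strand only), using the longest 3′ UTR of each gene in GENCODE M21 transcripts on mm10. Both Zfp36l genes held 3 copies each, Tut7 held 1, and Tut4 and Dis3l2 held 0. The matches are shown in capitals with 10 bases on each side, 5′ to 3′ along the mRNA.
Tut7, chr13:59771910-59771916, minus strand: tatgccggttTATTTATcattttgaaa
Zfp36l1, chr12:80108433-80108439, minus strand: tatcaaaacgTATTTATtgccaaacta
Zfp36l1, chr12:80108392-80108398, minus strand: attttgttcaTATTTATcgggatgaca
Zfp36l1, chr12:80108178-80108184, minus strand: actgttggatTATTTATtttagaaatt
Zfp36l2, chr17:84184925-84184931, minus strand: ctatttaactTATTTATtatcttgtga
Zfp36l2, chr17:84184877-84184883, minus strand: gtccatactgTATTTATcgagtatgat
Zfp36l2, chr17:84184691-84184697, minus strand: ttgtatgtaaTATTTATttcattaatt
The element occurred at least once in 5772 of 21683 genes with a 3′ UTR model (26.6%). Among genes whose 3′ UTR length was within 20% of the member's, it occurred in 38.2% for Zfp36l1 (1835 bp) and in 38% for Zfp36l2 (1822 bp). The corresponding shares were 31.9% for Tut7 (1346 bp), 16.7% for Tut4 (636 bp) and 7.9% for Dis3l2 (350 bp). A match is a description of the sequence and not a measured binding site.

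On mm10, Tut4 (ENSMUSG00000034610.14) lies at chr4:108459426-108559421 on the plus strand with 8684 bp of annotated exon, and Tut7 (ENSMUSG00000035248.9) at chr13:59771561-59823147 on the minus strand with 14732 bp. Dis3l2 (ENSMUSG00000053333.15) lies at chr1:86703808-87050095, plus strand, 8901 bp. Zfp36l1 (ENSMUSG00000021127.7) lies at chr12:80107754-80113013, minus strand, 2990 bp, and Zfp36l2 (ENSMUSG00000045817.8) at chr17:84183931-84187947, minus strand, 3530 bp. Some counts are uncertain because no strand-marking step is named, so reads of a gene and of an antisense partner cannot be told apart. The exons of Tut7 share 1299 bp with the antisense gene Etohd2 and 228 bp with the same-strand gene Gm49354, those of Zfp36l1 share 1672 bp with the opposite-strand lincRNA Gm26669, and those of Zfp36l2 share 105 bp with an antisense transcript. Etohd2 ran between 14.6 and 25.9 CPM in GV libraries and between 4.88 and 15.4 CPM in embryo libraries. Gm49354 ran between 30.8 and 61.2 CPM in GV libraries, above Tut7 in each, and between 5.27 and 20.2 CPM in embryo libraries. How reads of the shared exon were assigned is not known. Zfp36l1 also has a processed copy, Zfp36l1-ps, which held at most 12 counts in any library. At 1 cell the copy had more counts than Zfp36l1, 7 against 3 in WT and 15 against 2 in het libraries. In 2-cell and arrested libraries the copy held 0 counts. How reads matching both were counted is not given, and their part in the changes of Zfp36l1 was not tested.

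Libraries held 3.62 M to 50.49 M counts in GV oocytes and 5.6 M to 40.38 M in embryos. The GV transcriptome libraries held 3.62 M and 19.82 M counts in het against 44.34 M and 45 M in WT oocytes. Depth and genotype thus go together in that fraction, and the part of depth in its genotype differences was not tested. Levels are given as counts per M of the library's TMM-scaled total (CPM), and 3 counts, the limit that a count of 0 allows, corresponded to between 0.066 and 0.75 CPM. Intervals and such limits cover counting error only. Eif4enif1 itself was lower in het than in WT oocytes in the translatome (log2 -1.24, adjusted p = 0.0224 by edgeR's quasi-likelihood test) and in the transcriptome (-1.26, adjusted p = 0.0283), and differed by -1.12 in 1-cell and -0.60 in 2-cell embryos (adjusted p = 1 for both). All 12 oocyte markers had counts in GV oocytes. Some libraries stood apart from the rest of their group. Het 1-cell libraries 1 and 3 had 6.34% and 5.53% of their counts in the 100 most abundant genes against 32.06% to 38.05% in the other 1-cell libraries, and their oocyte markers summed to 1770 and 1440 CPM against 13000 to 15600 CPM. In arrested library 1, 2-cell-stage markers summed to 40.2 CPM against 3440 and 2200 CPM in arrested libraries 2 and 3. Markers of blood summed to between 175 and 552 CPM and those of oviduct to between 168 and 296 CPM in 2-cell libraries, against at most 3.98 and 9.38 CPM in 1-cell libraries. Of 6 blood markers 5 had counts in embryos (Ptprc at 0) but only 2 passed the filter on low counts. All 7 oviduct markers had counts and 5 passed. Such sums can rest on few genes, and whether these cells were present was not tested. Mitochondrially encoded counts made up 9.23% to 19.77% of 2-cell and 0.34% to 3.68% of 1-cell libraries. The part of these in the stage changes was not tested. In GV oocytes granulosa cell, oviduct and sperm markers and mitochondrially encoded transcripts summed higher in every het than in every WT library of the same fraction, and their values stand beside the results they move with.

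In GV oocytes Tut4 was the mRNA with the largest genotype difference of the 5: it was higher in het oocytes both in total mRNA and on ribosomes. In the transcriptome Tut4 stood at 0.541 and 1.44 CPM in the WT libraries (24 and 62 counts) and at 8.0 and 4.85 CPM in the het libraries (32 and 101 counts). Both het libraries lay above both WT libraries, and the rise of 2.63 on the log2 scale (SE 0.49) had an adjusted p of 0.0176. In the translatome Tut4 stood at 1.63 and 2.69 CPM in WT and at 13.0 and 15.1 CPM in het libraries. The groups again did not overlap, and Tut4 rose by 2.73 (SE 0.47, adjusted p = 0.00876). These calls rest on few libraries: without WT translatome library 1 the translatome rise was 2.38 with an adjusted p of 0.0528, and without het transcriptome library 1 or 2 the transcriptome rise had an adjusted p of 0.0607 or 0.063.

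Tut7, its paralogue, was the more abundant uridylyltransferase mRNA in WT oocytes and did not pass the test in either fraction. Transcriptome levels of Tut7 were 18.0 and 15.6 CPM in WT and 22.5 and 19.4 CPM in het libraries (log2 0.31, SE 0.26, adjusted p = 0.562). Translatome levels were 22.9 and 22.8 CPM in WT and 21.6 and 25.7 CPM in het libraries, which overlapped (log2 0.05, SE 0.26, adjusted p = 0.938). To set genes side by side, levels were divided by the kb of all annotated exons of a gene. Which annotated transcripts were present was not measured, so comparisons between genes on this scale are approximate. Per kb of exon, the WT transcriptome held 1.14 ± 0.119 CPM per kb of Tut7 and 0.114 ± 0.0735 of Tut4 (SD, n = 2). In the het translatome the levels were 1.61 ± 0.195 for Tut7 and 1.61 ± 0.171 for Tut4, and the libraries of the 2 mRNAs overlapped. The exonuclease mRNA Dis3l2 stood at 4.69 and 4.19 CPM in the WT and 2.00 and 2.31 CPM in the het transcriptome. The het values were lower without overlap, but rested on 8 and 48 counts, and the difference of -1.01 (SE 0.44) did not pass (adjusted p = 0.226). On ribosomes Dis3l2 stood at 11.4 and 4.99 CPM in WT and 7.81 and 8.46 CPM in het libraries (log2 -0.03, SE 0.38, adjusted p = 0.978), with the WT libraries enclosing the het ones.

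The AU-rich element binder Zfp36l2 rose in het total mRNA, from 1.49 and 1.05 CPM (66 and 45 counts) to 5.0 and 5.19 CPM (20 and 108 counts). The log2 difference was 2.01 (SE 0.47, adjusted p = 0.041). This call was lost without any 1 of the 4 transcriptome libraries, with adjusted p between 0.0595 (without WT library 1) and 0.293 (without het library 2), 0.0861 without het library 1 and 0.198 without WT library 2. On ribosomes Zfp36l2 stood at 2.48 and 1.28 CPM in WT and 3.41 and 2.65 CPM in het libraries, which did not overlap (log2 0.66, SE 0.45, adjusted p = 0.426). Zfp36l1 stood at 1.73 and 2.62 CPM in the WT and 5.78 and 8.55 CPM in the het translatome. Its difference of 1.74 (SE 0.50) missed the threshold (adjusted p = 0.0664). It passed in 3 of 11 alternatives: with DESeq2 (adjusted p = 0.0288), without the filter on low counts (0.0072) and with a crossed replicate block (0.0353). The other 8 did not call it, among them RLE scaling (0.0692), no scaling factors (0.0689) and the replicate block (0.0832). Over all 11 the difference ran from 1.44 to 2.09. In the transcriptome Zfp36l1 stood at 0.474 and 1.05 CPM in WT and 2.75 and 1.2 CPM in het libraries, on 11 and 25 het counts (log2 1.19, SE 0.58, adjusted p = 0.279).

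**Figure D1:**
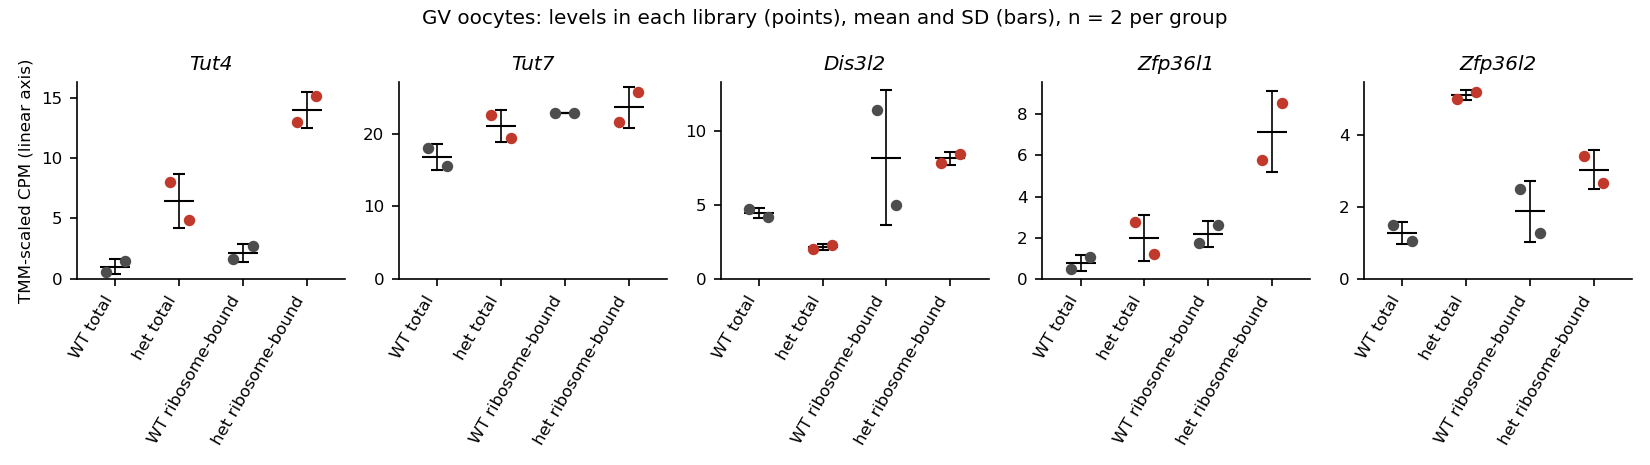
TMM-scaled CPM (linear axis) of each mRNA in the 8 GV libraries; points are libraries and bars the mean ± SD of 2 libraries per group. The het libraries of Tut4 lie above the WT libraries of the same fraction, while the levels of Tut7 lie between 15.6 and 25.7 CPM in all 8.

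In all, 1 of the 5 mRNAs rose on ribosomes, where 4.61% of 22409 genes tested were called and 2.61% were called higher, and 2 of 5 rose in total mRNA, where 2.55% were called and 1.41% were called higher. Of the genes called in total mRNA 55.4% were higher, 65.7% under RLE scaling and 75.1% with no scaling factors. None of the 5 fell in either fraction. The median log2 difference of the 5 mRNAs was 0.66 on ribosomes against 0.04 over all genes tested, and 1.19 in total mRNA against -0.04. Markers of other cells moved with these results, those of granulosa cells with the highest sums. All 23 had counts in the GV libraries, their sum was 219 and 430 CPM in the WT and 760 and 1120 CPM in the het translatome, and 122 and 220 CPM in the WT and 459 and 343 CPM in the het transcriptome, and 6 of 22 tested rose in each fraction. Oviduct markers, all 7 with counts, summed to 9.08 and 16.1 CPM in the WT and 53.6 and 34.5 CPM in the het translatome, and to 4.15 and 6.36 CPM in the WT and 27.3 and 17 CPM in the het transcriptome. Of 5 oviduct markers tested 2 rose on ribosomes and 1 in total mRNA (medians of 1.6 and 2.37). Sperm markers, 5 of 6 with counts and Tnp1 at 0, summed to 11.7 and 6.84 CPM in the WT and 12.2 and 15.9 CPM in the het translatome, and to 13.5 and 13.4 CPM in the WT and 18.3 and 24.2 CPM in the het transcriptome, and 0 of 3 tested were called in either fraction. The share of counts from mitochondrially encoded genes was 0.23% and 0.16% in the WT and 0.66% and 1.32% in the het translatome, and 0.31% in both WT and 0.68% and 1% in the het transcriptome libraries. The part of these differences in the rise of Tut4 and Zfp36l2 was not tested. In such bulk samples fewer cells of a type and less RNA per cell cannot be told apart.

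Whether genotype moved ribosome-bound mRNA beyond total mRNA was tested as an interaction. The difference between the 2 genotype changes was 0.09 for Tut4 (SE 0.68), -0.26 for Tut7 (SE 0.37), 0.98 for Dis3l2 (SE 0.58), 0.55 for Zfp36l1 (SE 0.76) and -1.35 for Zfp36l2 (SE 0.64). By edgeR's quasi-likelihood test 0 of 5 were called (0 at an unadjusted p under 0.05, 0 with DESeq2), where 0.0134% of all genes were called (3 genes, or 7 with the oocyte sample as a block). The lowest adjusted p was 0.567, for Zfp36l2. The gap between the fractions for Zfp36l2, which passed in total mRNA alone, is therefore not shown to be a difference.

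Within a genotype, ribosome-bound was set against total mRNA, as shares of separately scaled libraries. In het oocytes Dis3l2 was higher in the translatome by 1.88 (SE 0.44, adjusted p = 0.0214) and Zfp36l1 by 2.04 (SE 0.56, adjusted p = 0.041), 2 of 5 mRNAs where 8.09% of genes were called and 6.19% were called higher. Both calls were lost when single libraries were left out: that of Dis3l2 without any 1 of the 4 het GV libraries (adjusted p between 0.0612 and 0.284), and that of Zfp36l1 without het translatome library 1 (0.115) or 2 (0.166) or het transcriptome library 2 (0.533). Tut4 (1.18, SE 0.46, adjusted p = 0.124), Tut7 (0.18, SE 0.26, 0.702) and Zfp36l2 (-0.75, SE 0.45, 0.315) did not pass. In WT oocytes all 5 differences were positive, between 0.44 for Tut7 and 1.49 for Zfp36l1, and 0 of 5 passed by edgeR (3 at an unadjusted p under 0.05, 1 with DESeq2), where 14.6% of genes were called. Of all genes tested by edgeR 31.3% had an unadjusted p under 0.05, and DESeq2 called 3921 genes. With the oocyte sample as a block, since both fractions carry the same specimen number, Zfp36l1 was called in WT oocytes (1.58, adjusted p = 0.0457; 0.0713 without the block).

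Per kb of exon, Tut7 led in both WT fractions without overlap with the next mRNA. In the WT transcriptome it was followed by Dis3l2 (0.499 ± 0.0396), Zfp36l2 (0.359 ± 0.0883), Zfp36l1 (0.255 ± 0.136) and Tut4 (0.114 ± 0.0735 CPM per kb, SD, n = 2). The libraries of Zfp36l2, Zfp36l1 and Tut4 overlapped from neighbour to neighbour in that order. In the het transcriptome Zfp36l2 (1.44 ± 0.0377) and Tut7 (1.42 ± 0.148) overlapped at the top and Dis3l2 was lowest (0.242 ± 0.0243). In the het translatome Zfp36l1 led with 2.40 ± 0.653 CPM per kb, above Tut4 and Tut7 without overlap.

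Embryo libraries were scaled apart from the GV libraries, so levels are compared only among embryos. Every 2-cell and arrested library followed 24 h in vitro, while 1-cell libraries were taken without treatment. Stage or arrest therefore cannot be told apart from culture in comparisons with 1-cell embryos. Between the 1-cell and 2-cell stages the 2 uridylyltransferase mRNAs moved in opposite directions in both genotypes: Tut7 fell and Tut4 rose. Tut7 stood at 66.5, 78.3 and 62.3 CPM in WT 1-cell and at 24.4, 14 and 14 CPM in WT 2-cell libraries. No library of one stage reached the other, and Tut7 fell by 1.99 on the log2 scale (SE 0.42, adjusted p = 0.00184). In het embryos it went from 93.5, 117 and 70.9 CPM to 20.1, 14.4 and 13.2 CPM and fell by 2.56 (SE 0.43, adjusted p = 0.000722). Its antisense neighbour Etohd2 averaged 5.70 ± 0.978 CPM in WT 1-cell and 11.1 ± 1.63 CPM in WT 2-cell libraries (SD, n = 3). How reads of the shared exon were assigned is not known, and their part in the fall of Tut7 was not tested.

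Tut4 had few counts in 1-cell embryos. It stood at 0.822, 1.22 and 0.514 CPM in WT 1-cell libraries (12, 19 and 10 counts) and at 9.61, 4.45 and 11.9 CPM in WT 2-cell libraries. The stages did not overlap and Tut4 rose by 3.34 (SE 1.10, adjusted p = 0.0225). In het 1-cell libraries Tut4 had 4, 0 and 0 counts, where 3 counts would be 0.265, 0.269 and 0.19 CPM, and in het 2-cell libraries it stood at 5.75, 6.63 and 5.10 CPM. The fitted rise was 5.63 (SE 1.29, adjusted p = 0.00436) on those 4 counts. The WT rise was not called without any 1 of the WT 1-cell libraries (adjusted p of 0.0688, 0.0521 and 0.0832 without library 1, 2 and 3) or without WT 2-cell library 1 (0.0518) or 3 (0.0629). The fall of Tut7 in both genotypes and the het rise of Tut4 were called under each of the 13 alternatives run. The fit without het 1-cell libraries 1 and 3 leaves only library 2 in that group. In it the log2 change of Tut7 was -3.03. No fold is given for Tut4 there, since library 2 held 0 counts of it, so that fit adds little on its rise.

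Zfp36l2 was higher in every 2-cell than in every 1-cell library of its genotype, without passing the test. It stood at 0.617, 2.37 and 1.13 CPM in WT 1-cell and 4.72, 3.13 and 3.86 CPM in WT 2-cell libraries (log2 1.5, SE 0.82, adjusted p = 0.142). In het embryos it stood at 0.973, 1.61 and 1.33 CPM and at 4.47, 3.99 and 8.08 CPM (log2 2.07, SE 0.84, adjusted p = 0.0639). With DESeq2 both differences passed (adjusted p = 0.0349 in WT and 0.00479 in het). Zfp36l1 held 3 counts in all WT 1-cell libraries together and 2 in all het 1-cell libraries, and 36 and 44 counts in the 2-cell groups, of which 29 and 40 came from library 1 of each group. The ratio of 2-cell to 1-cell levels of Zfp36l1 was 6.16 in WT (95% exact counting interval 1.95 to 31.3) and 12.9 in het embryos (3.35 to 109). These intervals pool the libraries of a group and leave out the spread between them. Over that spread Zfp36l1 was not called by edgeR (adjusted p = 0.25 in WT and 0.169 in het embryos), and the stages overlapped in both genotypes. Dis3l2 stood at 0.959, 2.12 and 1.95 CPM in WT 1-cell and 0, 0.617 and 0.965 CPM in WT 2-cell libraries, which overlapped (log2 -1.65, SE 1.32, adjusted p = 0.309). In het 1-cell libraries Dis3l2 was uneven, at 1.5, 0.627 and 7.29 CPM, and in het 2-cell libraries it stood at 1.67, 0.434 and 0.404 CPM (log2 -1.91, SE 1.33, adjusted p = 0.264).

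**Figure D2:**
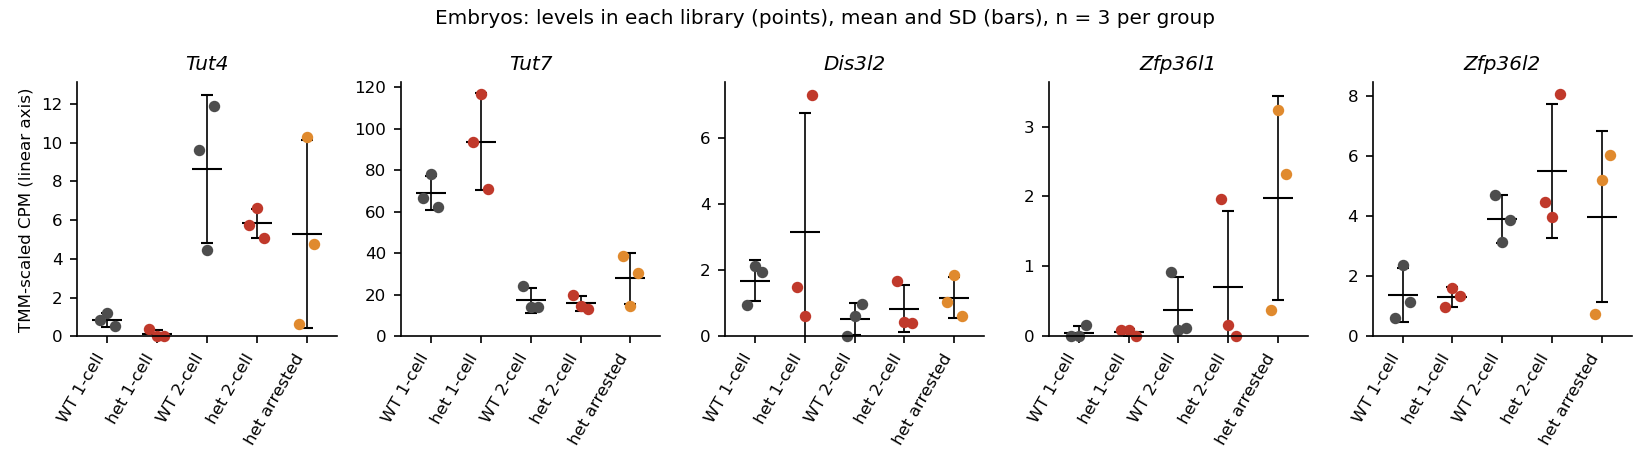
TMM-scaled CPM (linear axis, scaled per mRNA) in the 15 embryo libraries; points are libraries and bars the mean ± SD of 3 libraries per group. Tut7 stands between 62.3 and 117 CPM in 1-cell libraries and at most at 24.4 CPM in 2-cell libraries, while Tut4 is at most 1.22 CPM in the first and at least 4.45 CPM in the second.

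In each genotype 1 of the 5 mRNAs rose and 1 fell over this transition. Stage changes were common: 46.4% of 23656 genes tested were called in WT (28.5% higher, 17.9% lower) and 36.7% in het embryos (22.8% higher, 13.9% lower), so 2 called of 5 is near that background. Of the genes called in het embryos 62.1% were higher, and 40.8% with no scaling factors. The median log2 change of all genes was 0.59 in WT and 0.36 in het embryos, and the scaling moved it: the median shifted by 0.17 under RLE scaling in both genotypes, and by 0.30 in WT and -0.86 in het embryos with no scaling factors. Relative to the median, Tut7 lay below it and Tut4 above it under each scaling. Whether the stage change differed between genotypes was tested as an interaction. It was 2.29 for Tut4 (SE 1.54), -0.58 for Tut7 (SE 0.57), -0.25 for Dis3l2 (SE 1.86) and 0.57 for Zfp36l2 (SE 1.15), all with an adjusted p of 1. Of the 5 mRNAs 0 were called by edgeR (0 at an unadjusted p under 0.05, 0 with DESeq2), where 0.00423% of genes were called.

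No genotype difference was called for the 5 mRNAs within a stage. At 1 cell, Tut4 in het libraries lay below every WT library (log2 -2.86, SE 1.21, adjusted p = 1, on 4 het and 41 WT counts). Tut7 differed by 0.44 (SE 0.41), Dis3l2 by 0.91 (SE 1.29) and Zfp36l2 by -0.07 (SE 0.82), with overlapping groups and an adjusted p of 1 for each. These differences depend on the scaling: het 1-cell libraries 1 and 3, which stood apart, had TMM factors of 2.02 and 2.15. The median difference of all genes was 0.11, and 1.11 with no scaling factors. That of Tut7 ran from 0.24 to 1.31 over 13 alternatives. No fold is given for Zfp36l1, which had 2 and 3 counts. By edgeR 0 of 5 passed at 1 cell (1 at an unadjusted p under 0.05, 0 with DESeq2), and 0% of all genes were called (889 at an unadjusted p under 0.05, 80 with DESeq2). At 2 cells the differences were -0.57 for Tut4, -0.13 for Tut7, 0.65 for Dis3l2, 0.90 for Zfp36l1 and 0.50 for Zfp36l2, with SE between 0.41 and 1.70, overlapping groups and an adjusted p of 1. Again 0 of 5 passed by edgeR (0 at an unadjusted p under 0.05, 0 with DESeq2), where 0.00423% of genes were called.

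Per kb of exon, Tut7 stood far above the other members in 1-cell embryos, at 4.69 ± 0.564 CPM per kb in WT and 6.38 ± 1.58 in het libraries (SD, n = 3). The next was Zfp36l2, at 0.389 ± 0.256 in WT and 0.370 ± 0.0909 in het libraries. In WT 2-cell embryos Tut7 (1.18 ± 0.409), Zfp36l2 (1.11 ± 0.227) and Tut4 (0.997 ± 0.44) overlapped, and stood above Zfp36l1 (0.125 ± 0.158) and Dis3l2 (0.0592 ± 0.0549). In het 2-cell embryos Zfp36l2 (1.56 ± 0.634) and Tut7 (1.08 ± 0.249) overlapped, ahead of Tut4 (0.671 ± 0.0885).

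Arrested het embryos were set against each stage. In arrested libraries 2 and 3 Tut4, Zfp36l2 and Zfp36l1 stood above every WT and het 1-cell library. Zfp36l1 also did so in arrested library 1, but there on 4 counts, where 3 counts would be 0.283 CPM. The highest 1-cell library, WT library 3, held 3 counts of it (0.154 CPM). Tut4 stood at 0.659, 10.3 and 4.79 CPM in arrested libraries 1, 2 and 3, Zfp36l2 at 0.753, 5.20 and 6.03 CPM and Zfp36l1 at 0.377, 3.24 and 2.32 CPM. Library 1 was the lowest of the 3 for each of these, and it is the library with 40.2 CPM of 2-cell-stage markers, against 25.5 to 33.5 CPM in het 1-cell and 544 to 2940 CPM in het 2-cell libraries. Tut7 stood at 38.8, 14.6 and 30.4 CPM, highest in library 1, and Dis3l2 at 1.04, 1.85 and 0.618 CPM.

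Against het 1-cell embryos, Tut4 was higher in arrested embryos by 5.48 (SE 1.29, adjusted p = 0.013, against the 4 counts of the 1-cell group) and Tut7 lower by a log2 of -1.75 (SE 0.42, adjusted p = 0.014), where 13.9% of genes were called (9.97% higher, 3.91% lower). Of the genes called 71.8% were higher, and 34.1% with no scaling factors. Both calls depended on the libraries used: without het 1-cell libraries 1 and 3 both had an adjusted p of 0.123, without het 1-cell library 2 they had 0.0514 (Tut4) and 0.0558 (Tut7), and without library 3 Tut4 had 0.0548. Fitted on the compared groups alone they had 0.172 and 0.103. Without arrested library 1 both were called, at 6.05 (adjusted p = 0.00107) for Tut4 and -2.10 (0.00333) for Tut7. Zfp36l1 had 97 counts in arrested against 2 in het 1-cell libraries, a ratio of 43.2 (95% exact counting interval 11.6 to 361). Over the spread between libraries it was not called by edgeR (log2 4.98, SE 2.08, adjusted p = 0.116), and of 12 alternatives only DESeq2 called it (adjusted p = 0.0317). Other measures differed between these groups as well. The share of mitochondrially encoded counts was 15.73% to 17.32% in arrested against 0.34% to 3.68% in het 1-cell libraries. Blood markers summed to 7.44, 400 and 212 CPM and oviduct markers to 11.4, 172 and 87.6 CPM in arrested libraries 1, 2 and 3, against at most 3.98 and 9.38 CPM in 1-cell libraries. Both sums were lowest in library 1, as were Tut4, Zfp36l1 and Zfp36l2. Their part in the arrested differences was not tested.

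Against WT 1-cell embryos Tut7 was lower by a log2 of -1.31 (SE 0.41, adjusted p = 0.0375), and was the 1 called of 5 where 19.5% of genes were called and 5.44% were called lower. This call was lost in 8 of 13 alternatives, among them leaving out any 1 WT 1-cell library (adjusted p of 0.0827, 0.127 and 0.0826 without library 1, 2 and 3) or arrested library 2 (0.0968) or 3 (0.0739). Tut4 differed by 2.63 (SE 1.07, adjusted p = 0.0916) and was called without arrested library 1 (3.09, adjusted p = 0.0208) and with DESeq2 (0.0133). Against 2-cell embryos no member passed by edgeR. The differences from het 2-cell embryos were -0.14 for Tut4, 0.81 for Tut7, 0.49 for Dis3l2, 1.48 for Zfp36l1 and -0.46 for Zfp36l2 (adjusted p between 0.212 and 0.953), where 8.4% of genes were called. From WT 2-cell embryos they were -0.71, 0.68, 1.14, 2.38 and 0.04 in the same order (adjusted p between 0.251 and 0.987), where 18.8% were called (53.6% of them higher, and 37.3% with no scaling factors). In both comparisons 0 of 5 had an unadjusted p under 0.05 by edgeR, as had 27.6% of all genes against het and 34.9% against WT 2-cell embryos. With DESeq2 0 of 5 passed, where 4988 and 7261 genes were called. The 4 arrested comparisons share the arrested libraries.

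**Figure D3:**
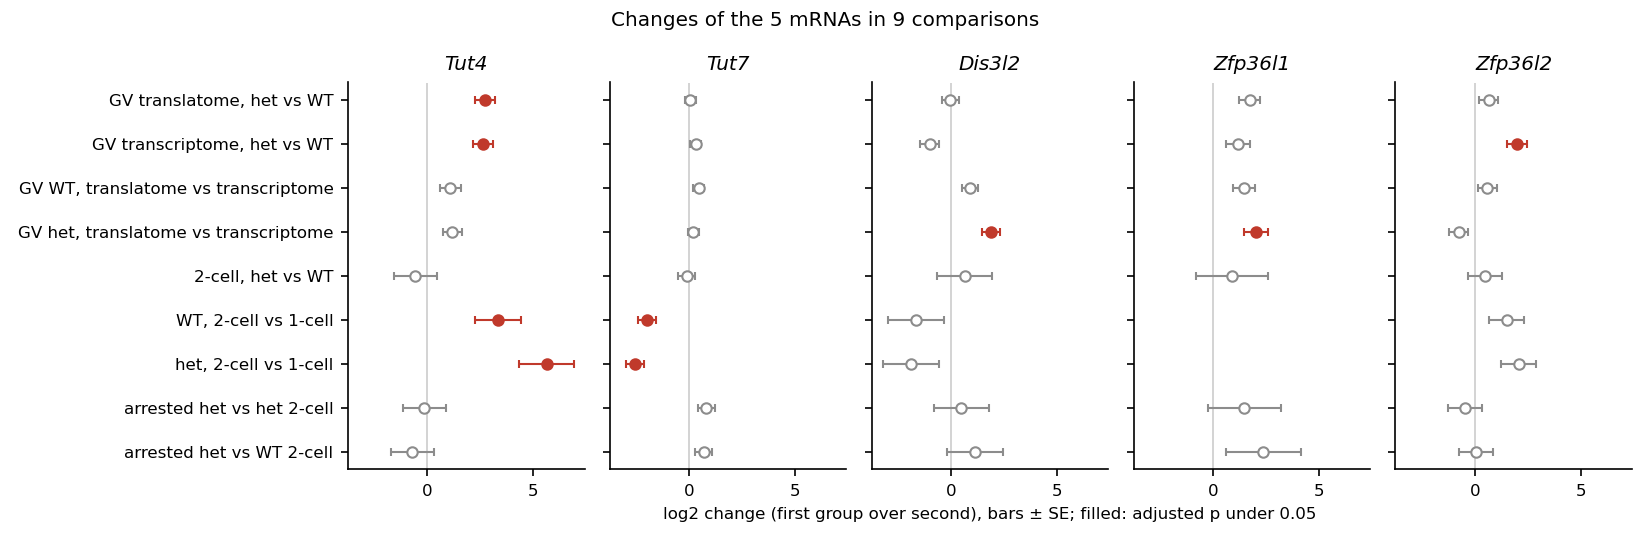
Log2 change (x axis, first group over second) with bars of ± 1 SE for each mRNA in 9 comparisons; filled points have an adjusted p under 0.05, and comparisons in which Zfp36l1 had 3 counts or fewer in a group are left blank. Tut4 is to the right and Tut7 to the left in both comparisons of 2-cell with 1-cell embryos, and only Tut4 is filled in both GV genotype comparisons.

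Likeness of level across libraries was taken as Pearson's r of log2 CPM, among genes whose mean level reached 10 CPM. These are descriptions over libraries that share groups, depth and marker differences. Over the 8 GV libraries the genes most like Tut4 were Xbp1 (0.99) and Cd81 (0.99), those most like Tut7 were Hmgn5 (0.94) and Ptges (0.94), and those most like Dis3l2 were Shisa8 (0.98) and Abhd17a (0.96). For Zfp36l1 they were Klf6 (0.98) and Pgam1 (0.97), and for Zfp36l2 Ugcg (0.96) and Fam120a (0.96). Over the 15 embryo libraries they were Trap1a (0.96) and Snhg5 (0.96) for Tut4, Syne2 (0.97) and Mia3 (0.97) for Tut7, and Tsc22d3 (0.92) and Ubtd2 (0.92) for Zfp36l2. Dis3l2 was most like Stk39 (0.83) and Hist2h3c1 (0.82), and Zfp36l1 most like Prkx (0.87) and Ston2 (0.87). Among the members themselves, Tut4 and Zfp36l1 had an r of 0.90 over GV libraries. Over embryo libraries Tut4 had -0.88 with Tut7 and 0.76 with Zfp36l2, and Tut7 had -0.76 with Zfp36l2.

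Of 70 other genes of these pathways 64 could be tested in GV oocytes. Between genotypes 8 of them rose and 3 fell on ribosomes (17.2% called, against 4.61% of all genes), and 4 rose and 1 fell in total mRNA (7.81%, against 2.55%). Of 9 other terminal nucleotidyltransferases 1 rose and 2 fell on ribosomes: the poly(A) polymerase Tent5a rose from 0.292 ± 0.232 to 2.63 ± 0.647 CPM (log2 2.99, n = 2), while Tent2, which lengthens poly(A) tails in the cytoplasm, fell from 54.5 ± 8.88 to 26.6 ± 4.68 CPM (log2 -1.04) and Tent5d fell by 2.62. In total mRNA 1 of 9 fell, the U6 uridylyltransferase Tut1 (18.2 ± 1.39 to 7.62 ± 3.37 CPM, log2 -1.35). Of 25 exonucleases and uridylation partners 2 rose on ribosomes, the decapping cofactor Lsm1 (41.2 ± 0.493 to 86.7 ± 4.16 CPM, log2 1.07) and the exosome subunit Exosc4 (0.99), and in total mRNA the lowest adjusted p of the list was 0.0595, again for Lsm1 (0.89).

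Of 17 tested AU-rich element binders and deadenylation partners, Hnrnpd, which binds AU-rich elements, rose on ribosomes (14.1 ± 2.38 to 42.1 ± 7.67 CPM, log2 1.59) and the deadenylase subunit Cnot8 fell (-1.10). In total mRNA the deadenylation adaptor Tob1 (6.10 ± 2.03 to 19.3 ± 1.46 CPM, log2 1.67) and the decay factor Khsrp (1.53) rose. Of 13 tested mRNAs known as ZFP36-family targets 4 rose on ribosomes, where 2.61% of all genes were called higher: Ier3 (1.18 ± 0.587 to 13.8 ± 1.58 CPM, log2 3.62), Myc (4.08 ± 1.11 to 27.1 ± 7.59 CPM, log2 2.75), Cdkn1a (1.95) and Mcl1 (1.66). In total mRNA, where 1.41% of all genes were called higher, Ier3 (3.43) and Myc (2.63) rose, and in neither fraction did a target fall. The median of the targets was 1.23 on ribosomes against 0.04 over all genes, and 1.25 in total mRNA against -0.04. The medians of the 22 granulosa cell markers tested were 1.08 and 1.67 in the same comparisons and those of 5 oviduct markers 1.6 and 2.37, and their part in the rise of the targets was not tested. These lists were drawn up with earlier results of these data known and are no independent evidence.

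**Figure D4:**
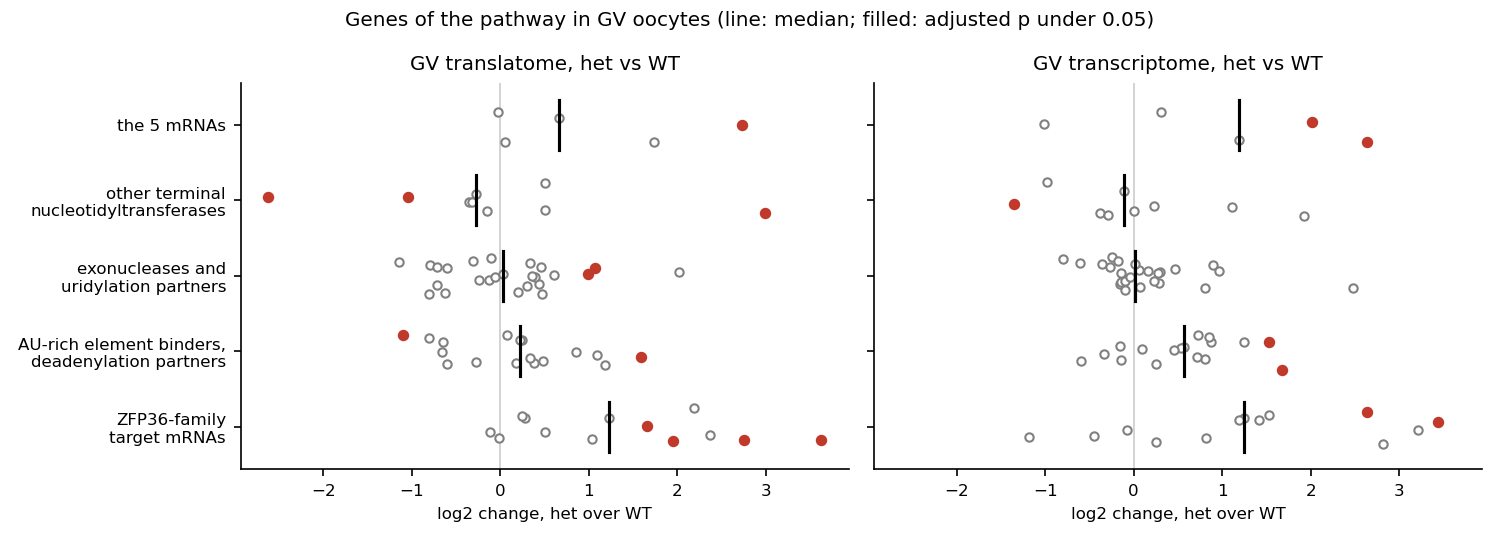
Log2 change (x axis, het over WT) of each tested gene of the pathway in GV oocytes, in the translatome (left) and the transcriptome (right); each point is a gene, filled where its adjusted p was under 0.05, and the line is the median of its list. The median of the ZFP36-family targets lies at 1.23 and 1.25, and those of the exonucleases at 0.03 and 0.01.

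From the 1-cell to the 2-cell stage of WT embryos 18 of 63 tested pathway genes rose and 16 fell. That is 54% called, near the 46.4% of all genes called (28.5% higher, 17.9% lower), so the counts that follow describe the lists and set none of them apart. Of 9 other terminal nucleotidyltransferases 1 was called higher and 4 lower, the mitochondrial poly(A) polymerase Mtpap falling from 244 ± 58.5 to 15.2 ± 0.678 CPM (n = 3, log2 -4.01), and Tent5a held 1 count over the WT 1-cell and 504 over the WT 2-cell libraries. Of the 25 exonucleases and partners 7 rose and 7 fell: the exosome nuclease Dis3 rose from 2.49 ± 0.578 to 42.9 ± 8.08 CPM (log2 4.11) and the decapping factor Dcp1a fell from 366 ± 134 to 19.6 ± 4.08 CPM (log2 -4.22). Of 18 tested AU-rich element binders and partners 4 rose and 4 fell. Among those that fell were the deadenylase Cnot6l (log2 -2.74) and the maternal deadenylation adaptor Btg4 (7320 ± 1600 to 542 ± 266 CPM, log2 -3.75). Of 11 tested ZFP36-family targets 6 rose and 1 fell, with Mcl1 going from 1.73 ± 1.19 to 50.8 ± 13.3 CPM (log2 4.86) and Cdkn1a rising by 5.92, while Dusp1 fell by 3.42. In het embryos the corresponding counts were 1 higher and 2 lower of 9, 6 and 4 of 25, 5 and 2 of 18, and 5 and 1 of 11, which is 41.3% of 63 beside the 36.7% of all genes called.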

How the data were processed

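Poly(A) RNA was measured in 8 GV and 15 embryo libraries. Raw read counts per gene were deposited by the authors as 2 tables, for GV oocytes and for embryos, each with 56196 genes. Per the labels' protocols, oocytes or embryos were lysed directly for total mRNA, RiboLace was used to capture mRNA on ribosomes, and a single-cell kit amplified the cDNA. Tools named per the submitters' processing notes were featureCounts 1.6.5, HISAT2 2.1.0 and Trim Galore 0.6.4, with the build mm10. Not given in the sources used here: the annotation release, the strand setting, and how multiply mapping reads were counted. No molecular identifiers are named.

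GENCODE M21 matched 54587 gene identifiers with their version and supplied exon lengths, positions and 3′ UTRs. The test was the quasi-likelihood F test in edgeR 4.0.16 (R 4.3.3, filterByExpr, TMM scaling), with 1 model of 4 groups for GV oocytes (22409 genes) and 1 of 5 groups for embryos (23656 genes). Over 14 comparisons, Benjamini-Hochberg adjustment ran over all genes of a comparison, and an adjusted p under 0.05 was a call. All 5 members passed the filter in both tables. The SE was derived from the F statistic. The procedure was tested on simulated data. No pair of libraries of a group held identical values.

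The members, 4 lists of pathway genes, marker lists and comparisons were chosen with earlier results of these data known. The rule for named genes took the members, up to 4 called genes of each list and comparison with the smallest p, and the 2 genes with the highest Pearson r to each member (log2 CPM with a prior count of 2). Dis3 and Btg4 in the stage comparison, Lsm1 in total mRNA, Zfp36, Zfp36l3 and the overlapping genes fall outside it and were picked after their values were seen. Specimen numbers in the labels pair the fractions of a GV sample. Over 9075 genes, the deviations from the group mean of paired fractions correlated at 0.263 in het and 0.0578 in WT oocytes. Alternatives were RLE scaling, no scaling factors, no filter, DESeq2 1.42.0, the compared groups alone, replicate blocks and each library left out. The settings with no scaling factors and with crossed blocks were added after seeing the data.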

Additional observations from a re-analysis of the deposited data

How the results depend on the processing

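The 12 called member changes kept their direction in 144 alternative fits and were no longer called in 35 of them; the calls of Tut7 falling from 1-cell to 2-cell embryos in both genotypes and of Tut4 rising in het embryos held in all. Of 709 alternatives of the 56 uncalled results, 18 passed the threshold and 48 changed sign. Counts were fewest for Zfp36l1 in 1-cell embryos (3 in WT, 2 in het) and for Tut4 in het 1-cell embryos (4), which limits the precision of their changes, and whether deeper libraries would hold more was not tested. Where a difference changed sign or a count moved, the cause was not tested.

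The number of members called in the GV translatome between genotypes was 2 with DESeq2 and 2 without the filter, and 0 to 1 with 1 library left out. In the transcriptome it was 0 to 1 with 1 library left out. For WT translatome against transcriptome it was 1 with DESeq2, 1 without the filter, 1 with the replicate block by oocyte sample and 0 to 1 with 1 library left out, and for het oocytes 3 on the compared groups alone, 1 with no scaling factors and 0 to 1 with 1 library left out. For WT 2-cell against 1-cell embryos it was 3 with DESeq2, 3 on the compared groups alone and 1 to 2 with 1 library left out, and for het embryos 3 with RLE scaling, DESeq2 or the compared groups alone. For arrested against het 1-cell embryos it was 3 with DESeq2, 0 on the compared groups alone, 0 without het 1-cell libraries 1 and 3, and 0 to 2 with 1 library left out. For arrested against WT 1-cell embryos it was 3 with DESeq2, 0 without the filter, 0 on the compared groups alone, 0 without het 1-cell libraries 1 and 3, and 0 to 2 with 1 library left out.

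Genotype differences that changed sign, all uncalled, were these. In the GV translatome Dis3l2 was 0.02 without the filter, 0.03 with the replicate block, 0.05 with the crossed block and -0.44 to 0.71 with 1 library left out, and Tut7 was -0.07 to 0.22 with 1 library left out. In the fraction interaction Tut4 was -0.04 with no scaling factors, -0.01 with DESeq2, -0.03 with the replicate block by oocyte sample and -0.75 to 0.66 with 1 library left out, and Zfp36l1 -0.14 to 1.10. In 1-cell embryos Dis3l2 was -1.40 without het libraries 1 and 3 and -0.74 to 1.38 with 1 library left out. Zfp36l2 was 0.79 with no scaling factors, 0.01 with the replicate block, 0.24 without het libraries 1 and 3 and -0.43 to 0.56 with 1 left out. With 1 library left out in 2-cell embryos Dis3l2 was -0.33 to 1.44, Tut7 -0.34 to 0.18 and Zfp36l1 -2.13 to 2.69.

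Among uncalled stage differences, Dis3l2 in het embryos was 0.26 without het 1-cell libraries 1 and 3. In the interaction of stage and genotype Dis3l2 was 0.45 with the replicate block, 1.99 without those libraries and -1.23 to 1.38 with 1 library left out, and Zfp36l2 -0.49 with no scaling factors and -0.08 to 0.92. In arrested against het 1-cell embryos Dis3l2 was 0.68 without het libraries 1 and 3 and -1.91 to 0.19 with 1 left out. Against het 2-cell embryos Dis3l2 was -0.21 to 1.47 and Tut4 -1.27 to 0.33. Against WT 2-cell embryos Zfp36l2 was -0.15 with RLE scaling, -0.20 with no scaling factors, -0.15 with DESeq2, -0.10 without the filter, -0.28 with the replicate block, -0.15 without het 1-cell libraries 1 and 3 and -0.39 to 0.49 with 1 left out.

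Genes called over the whole table moved more, often along with the member counts. With DESeq2 they numbered 1842 in the GV translatome between genotypes, 5940 in arrested against het 1-cell and 7177 in arrested against WT 1-cell embryos. On the compared groups alone they numbered 0 and 579 in those arrested comparisons, in that order. Without the filter they numbered 2113 in the GV translatome, and 4686 in arrested against WT 1-cell embryos, where 0 members were called. Over all alternatives they ran from 154 to 2113 (1034 as reported) in the GV translatome and from 69 to 1554 (572) in the transcriptome between genotypes, from 0 to 111 (3) in their interaction, and from 1195 to 4220 (3269) and from 1 to 3033 (1814) between fractions of WT and het oocytes. In embryos they ran from 0 to 284 (0) between genotypes at 1 cell, 0 to 141 (1) at 2 cells, 2017 to 11076 (8693) for the het stage change and 0 to 143 (1) for its interaction. For arrested embryos they ran from 0 to 5940 (3283) against het 1-cell, 579 to 7477 (4624) against WT 1-cell, 0 to 4988 (1986) against het 2-cell and 0 to 7261 (4455) against WT 2-cell embryos. In GV oocytes same-numbered WT and het libraries deviated apart (r of -0.338 in the translatome and -0.443 in the transcriptome), and a crossed pairing, added after seeing the data, called 1611 and 1169 genes and 2 members in each fraction. In embryos the replicate numbers only name libraries (r between -0.404 and 0.258), and a replicate block called 1909 genes in arrested against het 1-cell and 3037 against WT 1-cell embryos. In the GV translatome between genotypes a block by replicate number called 670 genes. Beyond Zfp36l1 in WT fractions and under the crossed pairing, no member call changed with a block.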

Other observations

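Zfp36l3, a further member of the AU-rich element binding family, was counted in 4 of the 15 embryo libraries and in 0 of the 8 GV libraries. It held 11 and 15 counts in WT 2-cell libraries 1 and 3, 10 counts in het 2-cell library 1 and 103 counts (5.30 CPM) in arrested library 2. The remaining embryo libraries, all 1-cell libraries among them, held 0 counts of Zfp36l3. Zfp36, the founding member, averaged 1.18 ± 0.583 CPM in WT 1-cell and 7.08 ± 2.06 CPM in WT 2-cell libraries (SD, n = 3), and 1.04 ± 0.484 and 6.71 ± 0.497 CPM in het libraries. Neither stage difference of Zfp36 was called (log2 2.58, adjusted p = 0.127 in WT and 2.68, adjusted p = 0.13 in het embryos, edgeR's quasi-likelihood test). In arrested embryos Zfp36 ran from 0 to 4.33 CPM with a median of 0.

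Genes with a 3′ UTR of 1000 to 3000 bp were split by their copies of TATTTAT, as a description with no test, since genes are not replicates. In the GV transcriptome the median log2 difference of het from WT was -0.07 for the 3509 genes with 0 copies, 0.09 for the 1865 with 1 or 2 and 0.19 for the 213 with 3 or more. In the GV translatome the medians were -0.09, -0.08 and -0.01. Genes with more copies had longer 3′ UTRs within this range (medians of 1620, 1845 and 2102 bp), so copies and length cannot be told apart.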
